A study of Mus musculus with 15 samples.

Results

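Macrophages, monocytes and granulocytes are part of the stroma of a solid tumor, and 41 genes that mark these cells or carry out their work were followed through mouse lymphomas and neuroblastomas with and without caspase-2. The genes were taken from a list of names, which was chosen with earlier results of these data known. All 41 were found among the 23329 genes counted (Spi1 under its older symbol Sfpi1), and 40 passed the filter of over 1 CPM (counts scaled to the library size) in at least 3 tumors, as did 14880 genes in all. Of the 40, 36 passed in lymphomas and in neuroblastomas, and S100a8, S100a9, Cd163 and Lyz1 passed through the lymphomas alone. The questions were how the myeloid genes compare between the tumor types, and how they differ between tumors with and without Casp2.

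Myeloid cells arise in the bone marrow under the transcription factor PU.1 (encoded by Spi1) and under colony stimulating factors, whose receptors (Csf1r for macrophages, Csf3r for neutrophils) keep the cells alive and make them mature. Macrophages take up dying cells, opsonised particles and lipoproteins through scavenger, lectin and Fc receptors, digest them in lysosomes, and secrete complement C1q, lysozyme and apolipoprotein E. Neutrophils carry the calcium-binding proteins S100a8 and S100a9 in large amounts. Several of the genes are not private to myeloid cells, since B cells also use Spi1, Ctss and the phagocyte oxidase genes, and Apoe, Lgals3 and Spp1 are made by many cell types.

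The tumors came from 15 mice, 1 library each. EμMyc mice (C57BL/6) carry c-Myc under the immunoglobulin heavy chain enhancer, which is active in B cells, and the lymphomas were taken from cervical lymph nodes: 4 EμMyc tumors wild type for Casp2 with onset at 13 to 19 weeks, and 3 EμMyc/Casp2-/- tumors with onset at 8 to 12 weeks. Th-MYCN mice (Sv129/C57BL6) carry MYCN under the tyrosine hydroxylase promoter, which is active in sympathetic neuroblasts, and the neuroblastomas were thoracic and lay beside the spine: 4 Th-MYCN tumors wild type for Casp2 with onset at 10 to 21 weeks, and 4 Th-MYCN/Casp2-/- tumors with onset at 15 to 24 weeks. Neuroblastomas with few or no blood vessels were chosen for sequencing, per the labels. Casp2-/- is a germline deletion, so the myeloid cells of those mice lack the gene as well as the tumor cells. Tumor type also goes with strain and tissue, and these cannot be told apart. Onset ages do not overlap between the lymphoma genotypes, so genotype and age cannot be told apart there. They do not overlap between the Casp2-/- lymphomas and neuroblastomas either. Sex was uneven and went partly with tumor type: females numbered 0 in EμMyc, 1 in EμMyc/Casp2-/-, 2 in Th-MYCN and 3 in Th-MYCN/Casp2-/-. CPM values of single tumors are given throughout in the order EuMyc614, EuMyc743b, EuMyc829 and EuMyc835, then EuMycC2ko215, EuMycC2ko239 and EuMycC2ko245, then MYCN175, MYCN235, MYCN332 and MYCN391, then MYCNC2ko118, MYCNC2ko144, MYCNC2ko176 and MYCNC2ko180.

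Libraries held 4940464 to 17638029 counted reads, and 3 reads, taken as the smallest detectable amount, were 0.173 to 0.586 CPM (counting error alone). Casp2 itself was at 167, 125, 203 and 139 CPM in EμMyc and 58, 51.9 and 76.1 CPM in EμMyc/Casp2-/- tumors, with no overlap, and at 125, 93.3, 76 and 106 and 80.2, 57.7, 39.6 and 54.5 CPM in Th-MYCN and Th-MYCN/Casp2-/- tumors, where MYCNC2ko118 was above MYCN332. Counts per gene do not show which exons the remaining reads came from. The tumor cell markers matched the labels: 9 B cell genes summed to 2252 to 4918 CPM in lymphomas and 9.00 to 23.9 CPM in neuroblastomas, and 9 sympathetic neuroblast genes to 3.46 to 17.4 and 2617 to 5241 CPM. Some libraries stood apart. EuMycC2ko215 had the lowest depth, the largest share of unmapped reads (11.2%), a summed T cell marker level of 1397 CPM against 54.0 to 252 in the other lymphomas, and was the only tumor of a female among the lymphomas. EuMycC2ko245 had a summed level of red cell markers of 672 CPM against 7.15 to 109 in the other 14 tumors.

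In bulk tumor RNA fewer cells of a type and less RNA per cell cannot be told apart, so every level below is that of the whole tumor piece. The 41 genes took 0.133% of all counts in EuMycC2ko245 to 0.475% in EuMycC2ko215. Per kilobase of transcript (lengths of GENCODE M21), Apoe, a lipid carrier secreted by macrophages and by glia, was the most abundant member in the neuroblastomas, with medians of 757 CPM per kb in Th-MYCN and 901 CPM per kb in Th-MYCN/Casp2-/- tumors. Lyz2, the lysozyme of macrophages, came next with medians of 253 and 233 CPM per kb, followed by C1qa, C1qb and C1qc at 70.2 to 103 CPM per kb. In the lymphomas Lyz2 had the highest group medians, 240.1 and 438 CPM per kb, ahead of Apoe at 218 and 278 and of Ctss, a lysosomal protease, at 134 and 149 CPM per kb. At the other end was Vsig4, a complement receptor of tissue macrophages, which failed the filter: it had 75 reads over the 15 tumors, 0 to 5 in each lymphoma and 0 to 21 in each neuroblastoma, and was not tested.

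**Figure D1:**
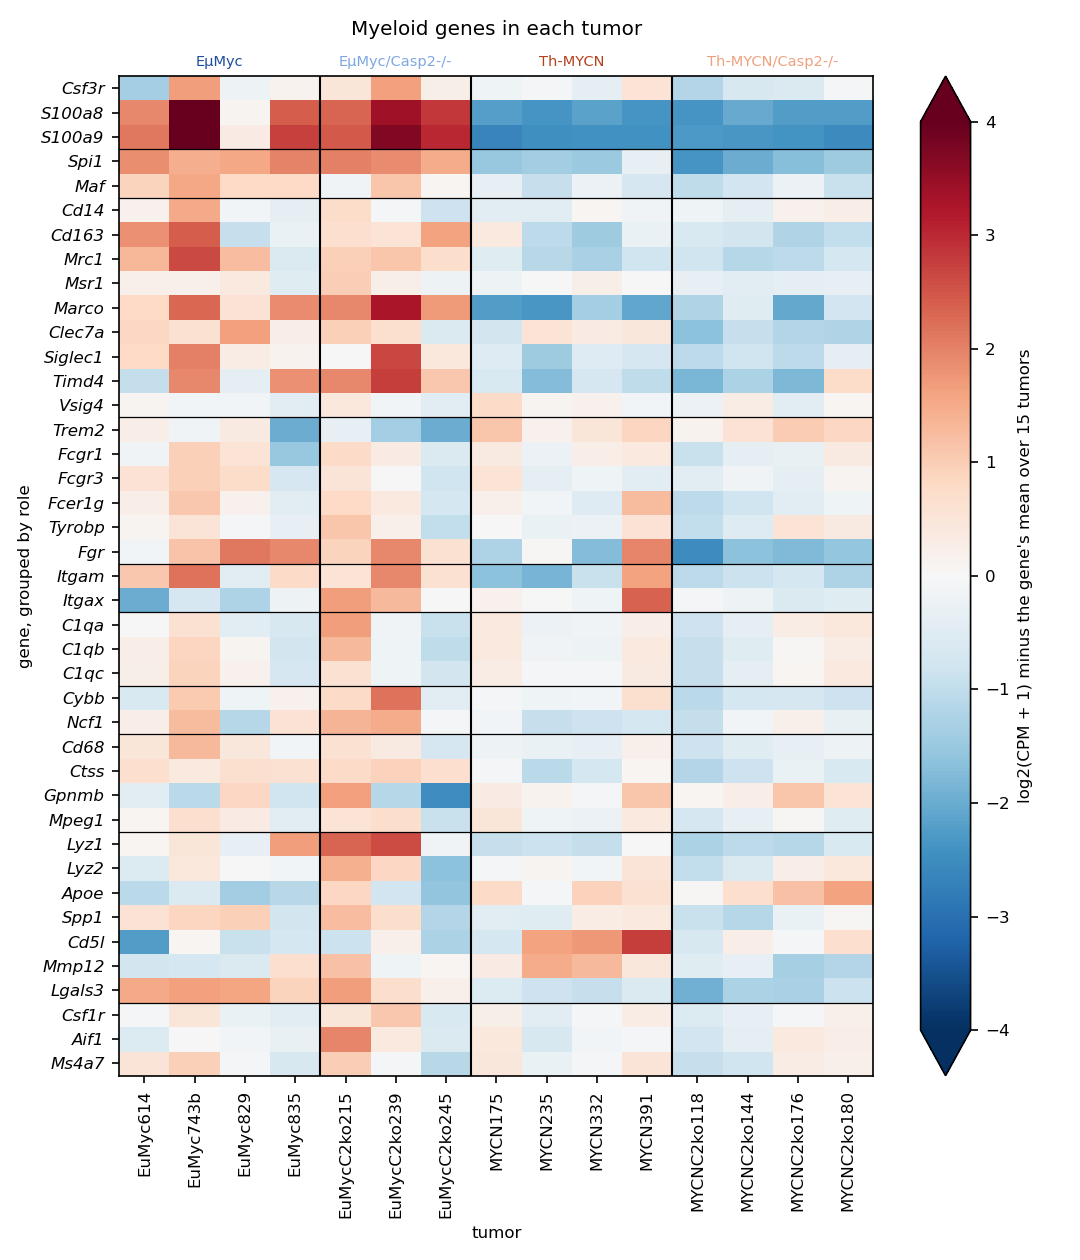
Each row is 1 of the 41 genes and each column 1 of the 15 tumors, and the color is log2(CPM + 1) minus the gene's mean over the tumors (red above, blue below, colors end at 4 and -4). S100a8 and S100a9 are blue in 8 of 8 neuroblastomas and red in the lymphomas (palest in EuMyc829, darkest in EuMyc743b), and MYCN391 stands out among the neuroblastomas for Fgr, Itgam, Itgax and Cd5l.

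Between Th-MYCN/Casp2-/- and Th-MYCN neuroblastomas the quasi-likelihood test of edgeR called 0 members higher and 0 lower, against 0.00672% and 0.0269% of all genes tested. A call needed more than a 2-fold change and an FDR (Benjamini-Hochberg) below 0.05. The likelihood ratio test of edgeR called 3 members lower without Casp2 (Clec7a, Mmp12 and Fgr) and 0 higher, against 0.625% and 0.188% of all genes, and DESeq2 called the same 3 genes (all genes 0.558% lower and 0.222% higher). The study had already named Fgr and Mmp12 from these tumors. Because the list was chosen with earlier results known, its share of calls is no independent support for an excess. At an unadjusted quasi-likelihood p under 0.05 there were 8 members, 7 lower and 1 higher, where all genes had 4.28% lower and 2.49% higher. Of the 40 members 32 were below 0 (against 50.3% of all genes), with a median log2 fold change of -0.32 for the members and -0.00237 for all genes. Without MYCN391 28 were below 0 (median -0.20), and without MYCNC2ko118 27 (median -0.17). MYCN391 was the highest of the 8 neuroblastomas for 18 of the 40 members and MYCNC2ko118 the lowest for 25. For 4 members (Clec7a, Mmp12, Cybb and Msr1) each Casp2-/- tumor was below each wild type one, against 3.68% of all genes, and for 0 was each above (2.94%).

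Clec7a encodes dectin-1, the receptor of macrophages and dendritic cells for fungal beta-glucan (chromosome 6, 129461591 to 129472779 in GRCm38, annotated there as a polymorphic pseudogene). It was at 13.4, 34.4, 29.7 and 32.1 CPM in Th-MYCN tumors and at 6.77, 11.8, 9.84 and 9.42 CPM in Th-MYCN/Casp2-/- tumors. The groups did not overlap, although MYCN175 lay close to the highest Casp2-/- tumor. The log2 fold change was -1.53 ± 0.39 (SE), with an FDR of 0.237 in the quasi-likelihood test and 0.0315 in the likelihood ratio test of edgeR. With 1 neuroblastoma left out at a time it lay between -1.75 and -1.39, and the likelihood ratio test called it in 1 of the 8 fits, that without MYCN175 (FDR 0.00218 to 0.186 over the fits).

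Mmp12 encodes macrophage metalloelastase, a secreted protease that cleaves elastin (chromosome 9, 7344381 to 7369499). Its levels were low, 3.66, 9.37, 8.2 and 4.14 CPM with Casp2 and 1.66, 1.99, 0.482 and 0.65 CPM without it. Each Th-MYCN tumor was above each Th-MYCN/Casp2-/- tumor. The log2 fold change of Mmp12 was -2.38 ± 0.63 (edgeR FDR 0.256 by quasi-likelihood and 0.0332 by likelihood ratio), and the latter test kept the call in 1 of 8 fits with a neuroblastoma left out, again that without MYCN175 (FDR 0.0162 to 0.216), at -2.73 to -2.12.

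The stretches before the start of transcription of these 2 genes are shown because both genes were called by the same test and did not overlap between the genotypes. Capitals mark the core of the binding motif of PU.1 and other ETS factors (GAGGAA on either strand, with the longer GAGGAAGT that contains it) and a C/EBP motif (TTNNGCAA on either strand). The 250 bases were read from RefSeq promoters in GRCm38.p6, 5′ to 3′ along the gene, at chr6:129472780-129473029, minus strand, and chr9:7344147-7344396, plus strand.
Clec7a: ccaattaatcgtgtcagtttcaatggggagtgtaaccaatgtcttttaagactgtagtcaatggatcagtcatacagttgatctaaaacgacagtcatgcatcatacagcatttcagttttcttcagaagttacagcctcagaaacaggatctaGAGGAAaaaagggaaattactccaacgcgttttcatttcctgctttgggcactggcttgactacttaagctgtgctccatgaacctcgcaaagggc
Mmp12: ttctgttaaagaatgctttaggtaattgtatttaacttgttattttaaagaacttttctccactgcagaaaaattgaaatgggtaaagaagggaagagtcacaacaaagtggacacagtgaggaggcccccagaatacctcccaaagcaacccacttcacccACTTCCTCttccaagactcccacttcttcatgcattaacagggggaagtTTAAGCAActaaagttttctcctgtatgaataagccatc
Promoters were found for 33 of the 41 members. GAGGAA stood in 57.6% of the 33 and in 23.1% of 27025 promoters of all genes, GAGGAAGT in 12.1% and 2.44%, and TTNNGCAA in 15.2% and 9.55%. These are matches of letters and not measured sites.

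Fgr encodes a SRC family kinase of myeloid and B cells that acts below integrins and Fc receptors (chromosome 4, 132974095 to 133001910). It was at 1.95, 6.17, 1.1 and 25.9 CPM in Th-MYCN and 0.216, 1.22, 1.06 and 1.38 CPM in Th-MYCN/Casp2-/- tumors. MYCN391 held most of the difference, and MYCN332 lay within the range of the Casp2-/- tumors. The log2 fold change was -3.17 ± 0.90 (edgeR FDR 0.309 by quasi-likelihood and 0.0413 by likelihood ratio), and -1.65 without MYCN391, where the likelihood ratio test no longer called it. That test kept the call in 2 of 8 fits with a neuroblastoma left out, those without MYCN175 and MYCN332.

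Among the other receptors of this kind, Fcer1g, the signalling chain shared by Fc receptors, was at 30.7, 24.7, 18.5 and 66.1 CPM in Th-MYCN and 12.5, 14.8, 19.6 and 23.4 CPM in Th-MYCN/Casp2-/- tumors, with MYCN391 again the highest (log2 fold change -0.995 ± 0.43, edgeR FDR 0.669). Tyrobp (DAP12), the adaptor of TREM2, was at 39.3, 32.5, 33.4 and 58.6 and 19.3, 27.4, 58 and 50.8 CPM, and Trem2, a lipid-sensing receptor, at 21, 10.5, 13.5 and 17.8 and 10.3, 14.3, 19.9 and 17.1 CPM. The groups of both genes overlapped, with log2 fold changes of -0.08 ± 0.41 and -0.03 ± 0.52.

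Cd5l, which encodes a secreted protein of tissue macrophages that limits their death, was at 23, 118, 129 and 265 CPM in Th-MYCN and 23.8, 45.9, 36.4 and 61.5 CPM in Th-MYCN/Casp2-/- tumors. The other 3 Th-MYCN tumors were above the Casp2-/- tumors, and MYCN175 was below all 4 of them. The log2 fold change was -1.68 ± 0.60 (edgeR FDR 0.515), and between -2.02 and -1.11 with a tumor left out. Spi1, which encodes PU.1, was at 7.76, 8.42, 7.79 and 18.8 and 3.82, 5.27, 6.56 and 8.2 CPM (log2 fold change -0.85 ± 0.31, edgeR FDR 0.543), and -0.43 without MYCN391. Itgax, which encodes the integrin CD11c of dendritic cells and macrophages, was at 8.06, 7.19, 6.12 and 40.2 and 6.77, 6.04, 4.34 and 4.79 CPM, so that MYCN391 stood apart from 7 tumors at 4.34 to 8.06 CPM.

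The 1 member with an unadjusted p under 0.05 in the other direction was Marco, a scavenger receptor of marginal zone and alveolar macrophages. It was at 0.305, 0.218, 1.39 and 0.432 CPM in Th-MYCN and 1.66, 3.34, 0.482 and 2.6 CPM in Th-MYCN/Casp2-/- tumors, with overlap through MYCN332 and a log2 fold change of 1.76 ± 0.68 (edgeR FDR 0.577). Cybb, the catalytic subunit of the phagocyte NADPH oxidase, was at 16.8, 15.5, 16.1 and 28 and 7.85, 10.3, 10.8 and 9.5 CPM, and Msr1, a scavenger receptor for modified lipoproteins, at 7.39, 8.72, 10.4 and 8.52 and 6.7, 6.17, 6.46 and 6.66 CPM. The groups did not overlap in either gene, at log2 fold changes of -0.99 ± 0.47 and -0.43 ± 0.32 (edgeR FDR 0.743 and 0.951).

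The 7 genes taken as macrophage markers were not called by any of the tests. Csf1r was at 42.9, 27.2, 35.9 and 45 CPM in Th-MYCN and 24.7, 29.4, 35.6 and 42.1 CPM in Th-MYCN/Casp2-/- tumors (log2 fold change -0.20 ± 0.32), and C1qc, a chain of complement C1q, at 114, 87.4, 88.5 and 118 and 48.7, 71.1, 97.8 and 121 CPM (-0.27 ± 0.34). The order of the Casp2-/- tumors was the same in both genes, with MYCNC2ko118 lowest and MYCNC2ko180 highest. Together the 7 genes summed to 334 to 475 CPM in Th-MYCN and 218 to 463 CPM in Th-MYCN/Casp2-/- tumors, with overlap, and had a median log2 fold change of -0.27, next to the -0.32 of the members. All of the 7 but Adgre1 are themselves members, so these medians are not independent. Markers of endothelial cells had lower sums without Casp2: 6 of them summed to 52.5 to 84.3 CPM with Casp2 and 22 to 37 CPM without it, with no overlap. The likelihood ratio test called 2 of the 6, Pecam1 and Kdr, lower (0.625% of all genes) and the quasi-likelihood test 0 (0.0269%). The part of the endothelial markers in the results on myeloid genes was not tested.

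**Figure D2:**
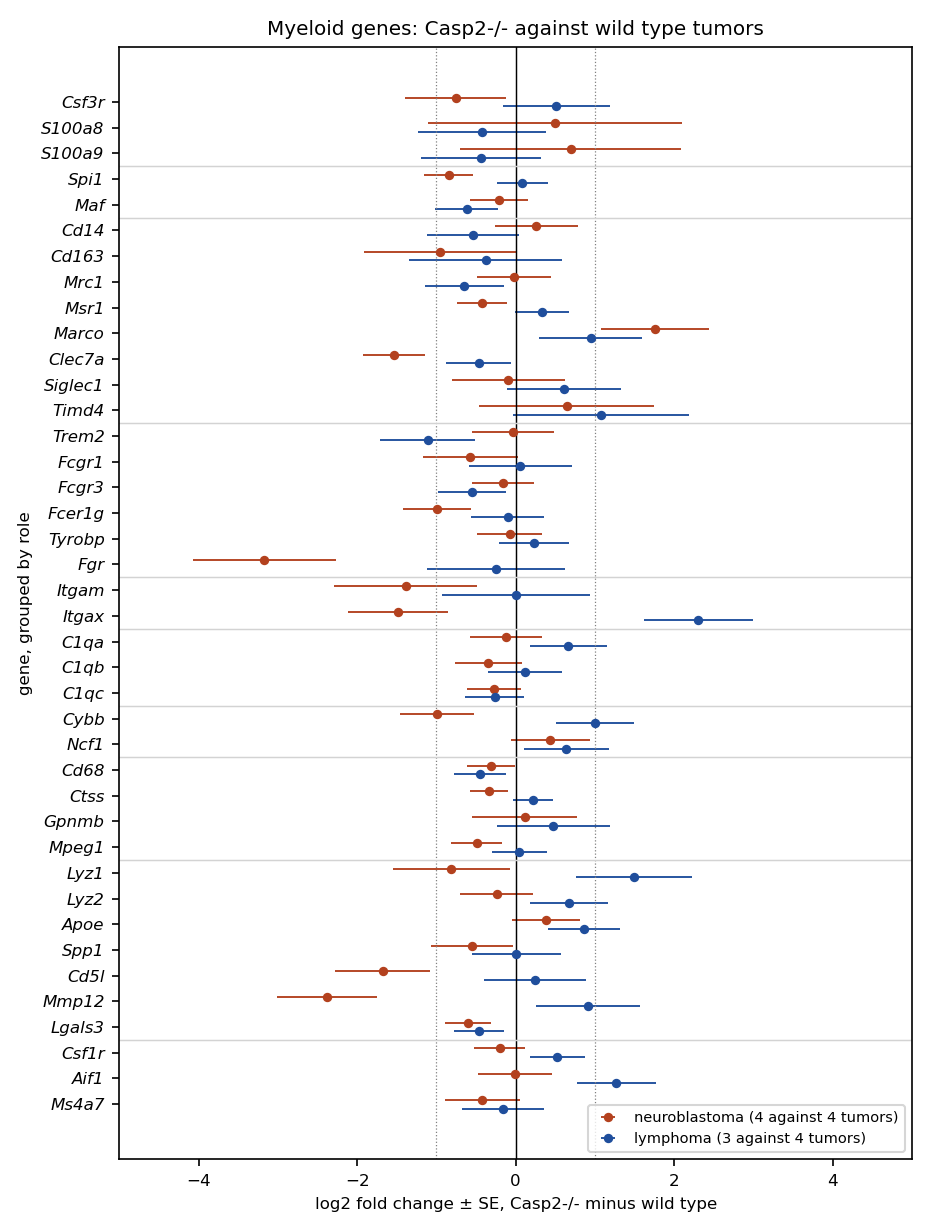
Points are log2 fold changes of 40 genes (Casp2-/- minus wild type) and bars are standard errors, for neuroblastoma in red and lymphoma in blue, with dotted lines at a 2-fold change. In neuroblastoma 32 of 40 points lie left of 0, Fgr being farthest at -3.17, and in lymphoma Itgax lies farthest to the right at 2.31.

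Between EμMyc/Casp2-/- and EμMyc lymphomas 0 members were called by either test of edgeR, against 0.0941% of all genes higher and 0.0470% lower by the quasi-likelihood test and 1.14% higher and 0.302% lower by the likelihood ratio test. DESeq2 called 1 member, Itgax, higher and 0 lower (all genes 1.08% and 0.282%). At an unadjusted quasi-likelihood p under 0.05 there were 2 members, Itgax and Aif1, both higher (all genes 5.56% higher and 2.97% lower). The members' median log2 fold change was 0.10 with 25 of 40 above 0 and 15 below (all genes 52.7% below), and single tumors moved it both ways: it was -0.13 with 15 above 0 without EuMycC2ko215 and -0.05 with 19 without EuMycC2ko239, and 0.41 with 32 without EuMyc743b and 0.44 with 28 without EuMycC2ko245. Ctss and Itgax were higher with no overlap, against 1.75% of all genes, and 0 members were lower with none (1.96%). EuMycC2ko215 had the highest value of the 7 lymphomas for 14 members, EuMyc743b for 13 and EuMycC2ko239 for 10, and EuMycC2ko245 the lowest for 18.

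Itgax was at 1.05, 4.02, 2.44 and 6.05 CPM in EμMyc and 24.4, 18.8 and 7.17 CPM in EμMyc/Casp2-/- tumors (chromosome 7, 128129547 to 128150657). The lowest Casp2-/- tumor, EuMycC2ko245, was just above EuMyc835. The log2 fold change was 2.31 ± 0.69, with an FDR of 0.27 by quasi-likelihood and 0.0564 by likelihood ratio in edgeR and 0.04 in DESeq2. It was 1.96 to 2.74 with a tumor left out. Of the 50-base windows of its transcripts 8.88% are shared with Itgad, a neighbouring integrin gene.

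Aif1 (IBA1), an actin-bundling protein used as a stain for macrophages and microglia, was at 7.96, 11.8, 11.2 and 9.66 and 50.0, 16.3 and 7.77 CPM. EuMycC2ko215 held the difference: the log2 fold change of 1.27 ± 0.50 (edgeR FDR 0.457) was 0.26 without it. Apoe was likewise at 406, 576, 326 and 396 CPM in EμMyc and 1526, 510.1 and 286 CPM in EμMyc/Casp2-/- tumors, with a log2 fold change of 0.86 ± 0.46 (edgeR FDR 0.644) that turned to -0.08 without EuMycC2ko215.

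Lyz1 was at 2.45, 3.59, 1.57 and 9.45 and 15.4, 18.7 and 1.92 CPM, with overlap through EuMycC2ko245 (log2 fold change 1.496 ± 0.73, edgeR FDR 0.604). Cybb was at 11.3, 37.6, 15.7 and 19.9 and 30.7, 83 and 12.9 CPM (1.00 ± 0.50, edgeR FDR 0.609), and its log2 fold change was 0.06 without EuMycC2ko239. Trem2 was at 11.3, 8.21, 12.1 and 1.59 and 7.23, 3 and 1.62 CPM (-1.11 ± 0.60, edgeR FDR 0.646), and its log2 fold change was -1.82 without EuMycC2ko215 and -0.73 without EuMycC2ko245. It was the member with the most negative fold change in the lymphomas, and 1 EμMyc tumor, EuMyc835, was below the 3 Casp2-/- tumors. Ctss, with no overlap, was at 189, 154, 184 and 181 and 202, 225 and 189.9 CPM, a log2 fold change of only 0.22 ± 0.26. The 9 T cell marker genes summed to 54 to 136 CPM in EμMyc and 199 to 1397 CPM in EμMyc/Casp2-/- tumors, with no overlap. The likelihood ratio test called 4 of the 9 higher (1.14% of all genes) and the quasi-likelihood test 0 (0.0941%). The part of the T cell markers in the values of Itgax and Aif1 was not tested.

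**Figure D3:**
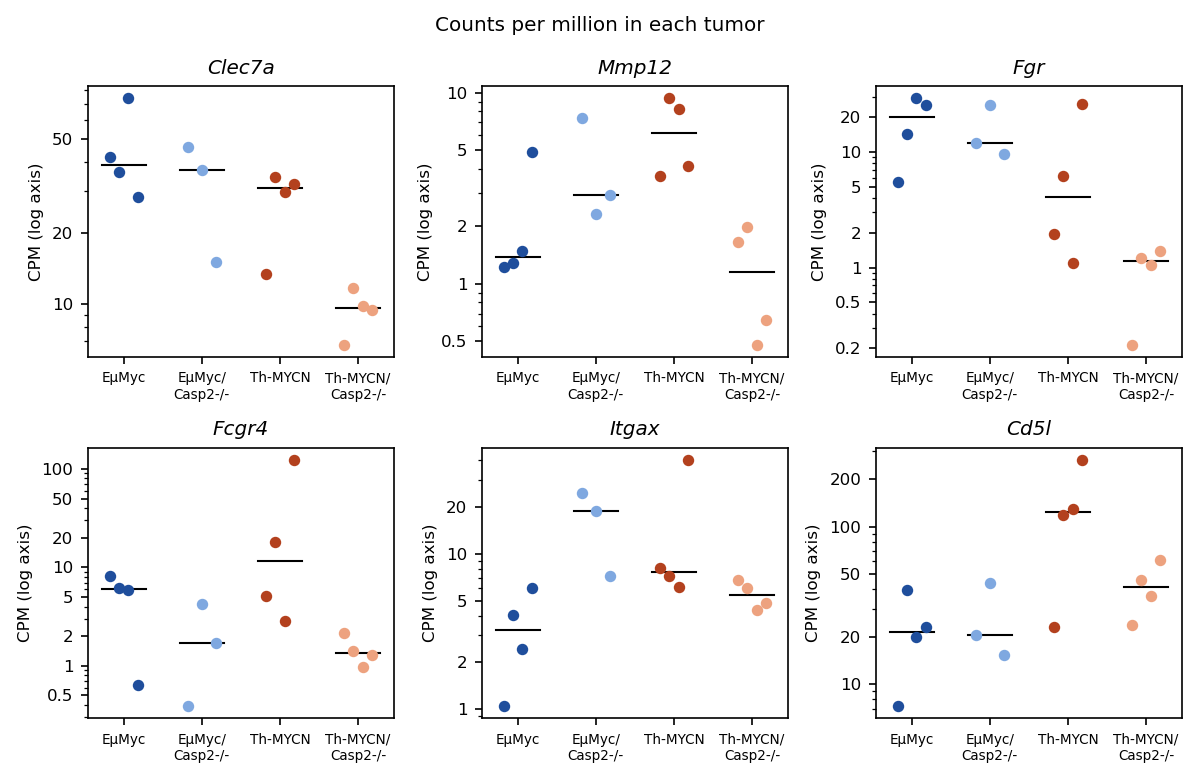
CPM on a log axis in each tumor (points) with the group median (line) for 5 listed genes and Fcgr4. In Th-MYCN tumors MYCN391 is the top point for Fgr, Fcgr4, Itgax and Cd5l, but not for Clec7a or Mmp12, where the 2 neuroblastoma groups are apart without it.

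The genotype difference itself was compared between the tumor types, as the lymphoma log2 fold change minus the neuroblastoma one. The quasi-likelihood test called 0 members (all genes 0.0336% higher and 0.0202% lower). At an unadjusted p under 0.05 there were 6 members (Fgr, Itgax, Cybb, Lyz1, Cd5l and Mmp12), all higher, against 4.93% of all genes higher and 2.64% lower. The likelihood ratio test called 2 members higher, Itgax and Mmp12, and 0 lower, against 0.726% and 0.188% of all genes, and DESeq2 called the same 2 (0.659% and 0.168%). The study had named both genes from these tumors, so these shares too are no independent support for an excess. For Itgax the difference was 3.79 ± 0.94 (edgeR FDR 0.318 by quasi-likelihood and 0.0162 by likelihood ratio), and 2.68 without MYCN391. When tumors were left out singly the likelihood ratio test still called it in 11 of 15 fits, and lost it without MYCN391, EuMycC2ko215, MYCNC2ko176 or MYCNC2ko180. For Mmp12, at 1.22, 1.28, 1.5 and 4.88 CPM in EμMyc and 7.42, 2.34 and 2.93 CPM in EμMyc/Casp2-/- tumors, the difference was 3.29 ± 0.90 (edgeR FDR 0.319 and 0.0421), and the call was kept in 5 of 15 such fits (those without EuMyc835, EuMycC2ko239, EuMycC2ko245, MYCN175 or MYCNC2ko144).

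Between the wild type tumors, EμMyc lymphomas against Th-MYCN neuroblastomas, 12 of 40 members were called higher and 4 lower by the quasi-likelihood test, where all genes had 18.3% higher and 27.8% lower. In the Casp2-/- tumors 19 were called higher and 2 lower, against 19.7% and 26.6% of all genes. S100a8, S100a9, Cd163 and Lyz1 are in both counts, and passed the filter through the lymphomas alone, where they are high. Of the 36 members that passed in both tumor types 8 were called higher and 4 lower with Casp2, against 17.9% and 20.3% of the 12009 genes that passed in both, and 15 and 2 without it, against 19.2% and 19.8%. Groups did not overlap for 8 members that were higher and 2 that were lower with Casp2 (all genes 26.4% and 32.9%), and for 20 and 1 without it (23.6% and 31.2%). Over the 36 members these were 6 and 2 (29.0% and 27.2% of the 12009 genes) and 16 and 1 (24.8% and 25.8%). The 12 were S100a8, S100a9, Spi1, Maf, Cd163, Mrc1, Marco, Siglec1, Timd4, Ncf1, Lyz1 and Lgals3, and each of them was also among the 19. The median log2 fold change of the 36 members was 0.14 with Casp2 and 0.99 without it (0.09 and 0.06 for the 12009 genes). Over the 40 members it was 0.56, with 30 above 0 and 10 below, and 0.13, with 21 and 19, without EuMyc743b, and between the Casp2-/- tumors it was 1.25 (all genes -0.04 and -0.05). These comparisons share their tumors with those of genotype, so a gene low in Th-MYCN/Casp2-/- tumors counts in both.

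Several of these calls depended on the fit. With age at onset as a covariate 12 members were called higher and 0 lower between the Casp2-/- tumors, as the calls of Csf3r, Mrc1, Clec7a, Siglec1, Timd4, Itgam, Mmp12, Trem2 and Apoe were lost, and between wild type tumors that of Mmp12 was. Onset was at 8 to 12 weeks in Casp2-/- lymphomas and 15 to 24 weeks in Casp2-/- neuroblastomas. Without overlap in age, that fit cannot tell age from tumor type between the Casp2-/- tumors. With sex as a covariate the wild type calls of Siglec1, Timd4, Cd163, Lyz1 and Mmp12 and the Casp2-/- calls of Csf3r and Itgam were lost. Between the Casp2-/- tumors Maf was not called without EuMycC2ko239, nor was Ncf1 without EuMycC2ko215, EuMycC2ko239, MYCNC2ko118, MYCNC2ko144 or MYCNC2ko180.

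Of the granulocyte genes, S100a8 (chromosome 3, 90668978 to 90670035) and S100a9 (chromosome 3, 90692632 to 90695721) are neighbours on opposite strands and encode the subunits of calprotectin. S100a8 was at 18.3, 153, 4.57 and 26.8 CPM in EμMyc and 25, 52.8 and 35.2 CPM in EμMyc/Casp2-/- tumors, and S100a9 at 26.2, 221, 6.93 and 41.1 and 33.4, 80.5 and 49.8 CPM. EuMyc743b was the highest and EuMyc829 the lowest lymphoma for both genes. In the neuroblastomas S100a8 had 0 to 4 reads a tumor and S100a9 also 0 to 4, which is 0 to 0.257 and 0 to 0.288 CPM and about the smallest detectable amount. The log2 fold changes of S100a8 and S100a9 were 9.17 ± 1.19 and 9.09 ± 1.10 between wild type tumors. These values rest on the few reads in the neuroblastomas and were 7.57 and 7.52 without EuMyc743b. Both genes passed the filter through the lymphomas alone, where they are high, so the test adds no support to the counts above. In the 7 lymphomas the reads of S100a9 were 1.34 to 1.54 times those of S100a8.

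The 250 bases before the RefSeq starts of S100a8 (chr3:90668821-90669070, plus strand) and S100a9 (chr3:90695722-90695971, minus strand) are given because the 2 genes had their highest and lowest values in the same lymphomas. Capitals mark the same motifs as above.
S100a8: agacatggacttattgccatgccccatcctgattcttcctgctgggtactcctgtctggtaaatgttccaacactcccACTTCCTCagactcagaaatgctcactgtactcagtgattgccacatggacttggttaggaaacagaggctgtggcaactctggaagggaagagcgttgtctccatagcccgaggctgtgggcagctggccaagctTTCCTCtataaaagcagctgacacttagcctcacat
S100a9: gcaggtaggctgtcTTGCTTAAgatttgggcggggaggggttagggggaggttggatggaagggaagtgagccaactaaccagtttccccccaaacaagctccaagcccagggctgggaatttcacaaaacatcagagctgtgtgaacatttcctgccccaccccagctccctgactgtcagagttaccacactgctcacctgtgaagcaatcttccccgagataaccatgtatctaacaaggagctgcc
The stretch of S100a8 holds GAGGAA in 2 places, 1 of them as GAGGAAGT, on the strand opposite to the one shown, and that of S100a9 holds TTNNGCAA once, also on the opposite strand.

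Csf3r, the receptor of neutrophils for granulocyte colony stimulating factor, did not follow them. It was at 1.14, 16.4, 3.78 and 5.1 CPM in EμMyc and 3.91, 4.28, 3.17 and 6.98 CPM in Th-MYCN tumors (log2 fold change 0.53 ± 0.63, edgeR FDR 0.489). Without Casp2 it was at 6.64, 16.1 and 5.45 CPM in lymphomas and 1.44, 2.51, 2.7 and 4.22 CPM in neuroblastomas and was called higher in lymphomas (1.79 ± 0.68, edgeR FDR 0.0347), a call lost without EuMycC2ko239, MYCNC2ko118, MYCNC2ko144 or MYCNC2ko176. Of its 50-base windows 11.4% occur in other transcripts, so part of its reads may have been left out as multiply mapped.

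Of the transcription factors, Spi1 was at 89.7, 66.9, 71.3 and 97.7 CPM in EμMyc and 99.8, 90.8 and 68 CPM in EμMyc/Casp2-/- tumors, 66.9 CPM or more in each, and at 18.8 CPM or less in each neuroblastoma. This was a log2 fold change of 2.93 ± 0.32 (edgeR FDR 1.44e-06). Maf, a factor of tissue macrophages that T cells use as well, was at 15, 23.9, 14 and 14 CPM in EμMyc and 5.8, 3.49, 6.23 and 4.38 CPM in Th-MYCN tumors with no overlap (1.74 ± 0.37, edgeR FDR 0.000855).

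Of the 8 scavenger and pattern receptors that were tested 5 were called higher in EμMyc tumors (18.3% of all genes), and 4 of the 7 other than Cd163, which passed the filter through the lymphomas alone. Marco was at 9.54, 29.2, 8.11 and 21.3 and 22.3, 56.9 and 19 CPM in the lymphomas and at 3.34 CPM or less in each neuroblastoma, with a log2 fold change of 4.82 ± 0.73 between wild type tumors (edgeR FDR 3.97e-05). Mrc1 (CD206), the mannose receptor, was at 41.5, 104, 38.7 and 10.3 and 31.5, 35.1 and 26.6 CPM in the lymphomas and 5.89 to 10.9 CPM in the neuroblastomas, so only EuMyc835, at 10.3 CPM, reached the neuroblastomas (2.59 ± 0.48, edgeR FDR 0.000278). Siglec1 (CD169), a sialic acid receptor of the macrophages that line lymph node sinuses, was at 5.34, 13.7, 3.46 and 3.08 and 2.73, 22.5 and 3.94 CPM against 0.363 to 1.87 CPM, with no overlap (2.40 ± 0.72, edgeR FDR 0.00911). Without EuMyc743b the log2 fold changes of Mrc1 and Siglec1 were 1.90 and 1.71, both past the threshold, and that of Siglec1 between the Casp2-/- tumors (3.10 ± 0.77) was 1.63 and not called without EuMycC2ko239.

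Timd4, a phosphatidylserine receptor with which resident macrophages bind dying cells, was at 0.962, 13.3, 1.97 and 12.5 CPM in EμMyc and 1.47, 0.145, 1.39 and 0.865 CPM in Th-MYCN tumors. EuMyc614 lay among the neuroblastomas, and the log2 fold change was 2.87 ± 1.13 (edgeR FDR 0.0385). Cd163, the receptor for haemoglobin bound to haptoglobin, was at 9.54, 14.7, 0.551 and 1.49 and 2.87, 0.436, 0.115 and 1.48 CPM, with overlap (2.41 ± 0.94). It passed the filter through the lymphomas alone, so its calls are no support for a difference. With a tumor left out at a time, Timd4 stayed past the threshold in 9 of 15 fits (not without EuMyc743b, EuMyc835 or any of the Th-MYCN tumors) and Cd163 in 10 (not without EuMyc614, EuMyc743b, MYCN235, MYCN332 or MYCN391). Between the Casp2-/- tumors both genes were called higher, with 3.30 ± 1.18 for Timd4, which was 5.86 without MYCNC2ko180, and 2.99 ± 1.02 for Cd163. The call of Timd4 was kept in 11 of 15 fits (not without EuMycC2ko239, MYCNC2ko118, MYCNC2ko144 or MYCNC2ko176) and that of Cd163 in 13 (not without EuMycC2ko245 or MYCNC2ko176).

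The other 3 receptors of this group were not called between wild type tumors. Clec7a was at 41.7, 36, 74 and 28.2 CPM in EμMyc tumors, a log2 fold change of 0.72 ± 0.38 over Th-MYCN tumors (edgeR FDR 0.115). Between the Casp2-/- tumors, with 46.1, 36.8 and 15 CPM in lymphomas, it was called higher in lymphomas (1.78 ± 0.41, edgeR FDR 0.00176). Msr1 was at 5.84 to 11.7 CPM in EμMyc tumors (0.12 ± 0.31) and Cd14, the co-receptor for lipopolysaccharide, at 2.44 to 11.6 CPM in EμMyc and 2.26 to 3.69 CPM in Th-MYCN tumors (0.91 ± 0.53). Msr1 and Cd14 were not called between the Casp2-/- tumors either.

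Of the 6 Fc and ITAM receptor genes 0 were called by the quasi-likelihood test between wild type tumors (all genes 18.3% higher and 27.8% lower). By that test 0 had an unadjusted p under 0.05 (64.3% of all genes), and the other tests called 0 too. Tyrobp was at 42.7, 57, 37.6 and 31.1 CPM in EμMyc tumors, next to the values in Th-MYCN tumors given above, a log2 fold change of 0.04 ± 0.41 (edgeR FDR 0.94). Fcer1g was at 32.4, 57.9, 30.4 and 19.5 CPM (0.00 ± 0.43, edgeR FDR 0.997). Fcgr1, the high-affinity IgG receptor, was at 0.637 to 8.13 CPM in EμMyc and 2.98 to 5.19 CPM in Th-MYCN tumors (0.01 ± 0.60), and Fcgr3, a low-affinity one that shares 12.3% of its 50-base windows with Fcgr2b, at 7.96 to 26.9 and 9.63 to 20.2 CPM (0.59 ± 0.39). None of these 4 was called in the Casp2-/- tumors.

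Fgr and Trem2 were called in the Casp2-/- tumors, in opposite directions. Fgr was at 5.51, 14.3, 29.1 and 25.6 CPM in EμMyc and 11.9, 25.4 and 9.59 CPM in EμMyc/Casp2-/- tumors, with log2 fold changes over the neuroblastomas of 1.08 ± 0.80 with Casp2 and 4.01 ± 0.95 without it (edgeR FDR 0.258 and 0.00211). Trem2 had log2 fold changes of -0.91 ± 0.52 with Casp2, which was not called, and -2.00 ± 0.61 without it, which was called lower (edgeR FDR 0.144 and 0.011) except without EuMycC2ko239 and with age at onset as a covariate. In neither gene did the Casp2-/- groups overlap.

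The integrin genes had the same feature of MYCN391 standing high. Itgam (CD11b), which pairs with CD18 on monocytes and neutrophils, was at 9.97, 22.3, 2.91 and 7.86 CPM in EμMyc and 0.672, 0.436, 1.85 and 14.9 CPM in Th-MYCN tumors (1.27 ± 0.88, edgeR FDR 0.227), and at 6.64, 18.7 and 6.97 and 1.51, 1.86, 2.22 and 1.22 CPM without Casp2, where it was called higher in lymphomas (2.66 ± 0.97, edgeR FDR 0.0284) in a call lost without EuMycC2ko239, MYCNC2ko118, MYCNC2ko144 or MYCNC2ko180. Itgax was called lower in EμMyc tumors than in Th-MYCN tumors with no overlap (-2.19 ± 0.65, edgeR FDR 0.00912), and without MYCN391 its log2 fold change was -1.08 and it was not called. In the Casp2-/- tumors its log2 fold change was 1.61 ± 0.67, with an edgeR FDR of 0.0519 by quasi-likelihood and 0.0321 by likelihood ratio.

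The 3 chains of C1q, which are encoded side by side on chromosome 4 and start the classical complement pathway, were not called between tumor types by any test. C1qa was at 83, 130.3, 62.1 and 53.8 CPM in EμMyc and 109.8, 70.8, 77 and 101 CPM in Th-MYCN tumors, C1qb at 122, 183, 109 and 59.9 and 133, 91.2, 87.6 and 134 CPM, and C1qc at 108, 174, 104 and 58.1 CPM in EμMyc tumors. Their log2 fold changes were -0.12 ± 0.45, 0.09 ± 0.43 and 0.12 ± 0.34, with overlap in each. In EμMyc/Casp2-/- tumors C1qa was at 272, 76.4 and 45.4 CPM, C1qb at 248, 89.7 and 49.2 CPM and C1qc at 141, 82.6 and 55.5 CPM. The ratio of C1qa to C1qc reads was 0.597 to 1.05 in 14 tumors and 1.93 in EuMycC2ko215, and that of C1qb to C1qc was 0.886 to 1.17 and 1.76.

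Of the oxidase genes, Ncf1 (p47phox), a cytosolic subunit that B cells also express, was at 10.6, 21.7, 3.31 and 13.3 CPM in EμMyc and 7.82, 3.99, 4.33 and 4.82 CPM in Th-MYCN tumors and was called higher (1.22 ± 0.50, edgeR FDR 0.0476), a call kept in 6 of 15 fits that each left out 1 tumor (EuMyc829, MYCN175, MYCNC2ko118 or any EμMyc/Casp2-/- tumor). Cybb, at 11.3, 37.6, 15.7 and 19.9 CPM in EμMyc tumors, differed by 0.14 ± 0.46 between wild type tumors, and by 2.13 ± 0.51 between Casp2-/- tumors, where it was called (edgeR FDR 0.806 and 0.00207).

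Of the lysosomal and phagosomal genes, Ctss had no overlap between the tumor types (154 to 225 CPM in lymphomas and 51.5 to 126 CPM in neuroblastomas). Its log2 fold change of 0.95 ± 0.24 between wild type tumors (edgeR FDR 0.00295) was under 2-fold and that of 1.501 ± 0.26 between Casp2-/- tumors was called (edgeR FDR 0.000141). Cd68, a lysosomal glycoprotein of macrophages, was at 69.4, 123, 66.5 and 45.4 and 42.3, 40.2, 38.7 and 55.8 CPM (0.78 ± 0.30, edgeR FDR 0.0359, under 2-fold). Mpeg1 (perforin-2), which forms pores in engulfed bacteria, was at 78.7 to 175 and 92.7 to 153 CPM (0.06 ± 0.32), and Gpnmb, a glycoprotein of lipid-laden macrophages, at 20.3 to 80.3 and 42.1 to 96.3 CPM (-0.63 ± 0.66). Gpnmb spanned 7.07 to 139 CPM over the 3 EμMyc/Casp2-/- tumors.

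The secreted products went both ways. Apoe was at 1468, 818, 1648 and 1316 CPM in Th-MYCN and 901, 1371, 1941 and 2657 CPM in Th-MYCN/Casp2-/- tumors and was called lower in lymphomas with and without Casp2 (-1.62 ± 0.44 and -1.15 ± 0.48, edgeR FDR 0.00476 and 0.0494). The second call was kept in 4 of 15 fits that each left out 1 tumor (EuMyc743b, EuMycC2ko215, MYCN235 or MYCNC2ko118), and was -2.04 without EuMycC2ko215. Cd5l was at 7.26, 39.8, 19.9 and 22.9 CPM in EμMyc and 20.5, 43.7 and 15.3 CPM in EμMyc/Casp2-/- tumors, and was called lower in lymphomas between wild type tumors alone (-2.57 ± 0.62, edgeR FDR 0.00216, and -0.65 ± 0.65, FDR 0.405, between Casp2-/- tumors). Mmp12 turned direction, with -1.52 ± 0.61 between wild type and 1.78 ± 0.66 between Casp2-/- tumors (edgeR FDR 0.0424 and 0.0312), each of them called. The first call was lost without EuMyc614, EuMyc743b, EuMyc829, MYCN235 or MYCN332 and the second without EuMycC2ko215, MYCNC2ko176 or MYCNC2ko180. Lgals3 (galectin-3), a beta-galactoside lectin, was higher in lymphomas with no overlap, at 157, 169, 163 and 101 and 173, 87.7 and 62.6 CPM against 13.5 to 36.8 CPM in the neuroblastomas (2.18 ± 0.30 and 2.32 ± 0.32, edgeR FDR 1.64e-05 and 1.7e-05). Spp1 (osteopontin) was at 5.73 to 20.7 CPM in EμMyc and 6.9 to 13.7 CPM in Th-MYCN tumors and was not called (0.60 ± 0.52).

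The 2 lysozyme genes lie next to each other on chromosome 10 (Lyz2 at 117277331 to 117282321 and Lyz1 at 117287797 to 117292868). The first 300 bases of their coding sequences are shown because reads that match both genes were left out as multiply mapped. Differing bases are in capitals. Over all 447 coding bases the 2 genes differ at 22, 20 of them in the stretch shown, and are 95.1% identical (GENCODE M21 transcripts, GRCm38).
Lyz1: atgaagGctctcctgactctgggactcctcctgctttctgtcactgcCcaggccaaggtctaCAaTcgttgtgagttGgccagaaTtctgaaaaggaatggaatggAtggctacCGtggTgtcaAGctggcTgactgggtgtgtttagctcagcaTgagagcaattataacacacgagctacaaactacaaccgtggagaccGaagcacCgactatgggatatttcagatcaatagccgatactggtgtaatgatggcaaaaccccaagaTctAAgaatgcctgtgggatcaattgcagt
Lyz2: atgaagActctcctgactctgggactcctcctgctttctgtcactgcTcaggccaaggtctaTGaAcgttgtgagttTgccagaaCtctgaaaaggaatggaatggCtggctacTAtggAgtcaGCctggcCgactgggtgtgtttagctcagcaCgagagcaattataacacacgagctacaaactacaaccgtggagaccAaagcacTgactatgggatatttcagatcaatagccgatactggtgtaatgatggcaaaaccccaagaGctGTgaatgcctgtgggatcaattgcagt
Of 398 windows of 50 bases, the length of the reads, 80 were identical in both coding sequences. Lyz2 was at 221, 439.7, 331 and 301 CPM in EμMyc, 872, 576 and 104 CPM in EμMyc/Casp2-/-, 310.5, 354, 305 and 468 CPM in Th-MYCN and 166, 218, 395 and 439 CPM in Th-MYCN/Casp2-/- tumors, and did not differ past the test between tumor types (-0.15 ± 0.46, edgeR FDR 0.79). Lyz1, which is best known from Paneth cells of the gut, was at 0.733, 0.799, 0.693 and 2.29 and 0.36, 0.578, 0.482 and 1.14 CPM in the neuroblastomas and was called higher in lymphomas (1.90 ± 0.72, and 4.21 ± 0.81 between Casp2-/- tumors). Lyz1 passed the filter through the lymphomas alone, where it is high, so these calls are no support for a difference. The first of these calls was lost without EuMyc835, MYCN175, MYCN235 or MYCN332. It gave 0.474% to 3.14% of the reads of both genes in lymphomas and 0.122% to 0.486% in neuroblastomas.

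The last 3 markers of macrophages were called in neither comparison of tumor types. Csf1r was at 35.2, 52, 30.2 and 26.4 CPM in EμMyc tumors (-0.07 ± 0.32 against Th-MYCN), Aif1 was at 7.34 to 16.6 CPM in Th-MYCN tumors (-0.20 ± 0.46), and Ms4a7, a membrane protein of tissue macrophages, was at 8.81 to 28.4 CPM in EμMyc and 11.5 to 20.6 CPM in Th-MYCN tumors (0.14 ± 0.48). The edgeR FDR of these 3 was 0.862, 0.727 and 0.815, which does not show that the levels were equal.

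**Figure D4:**
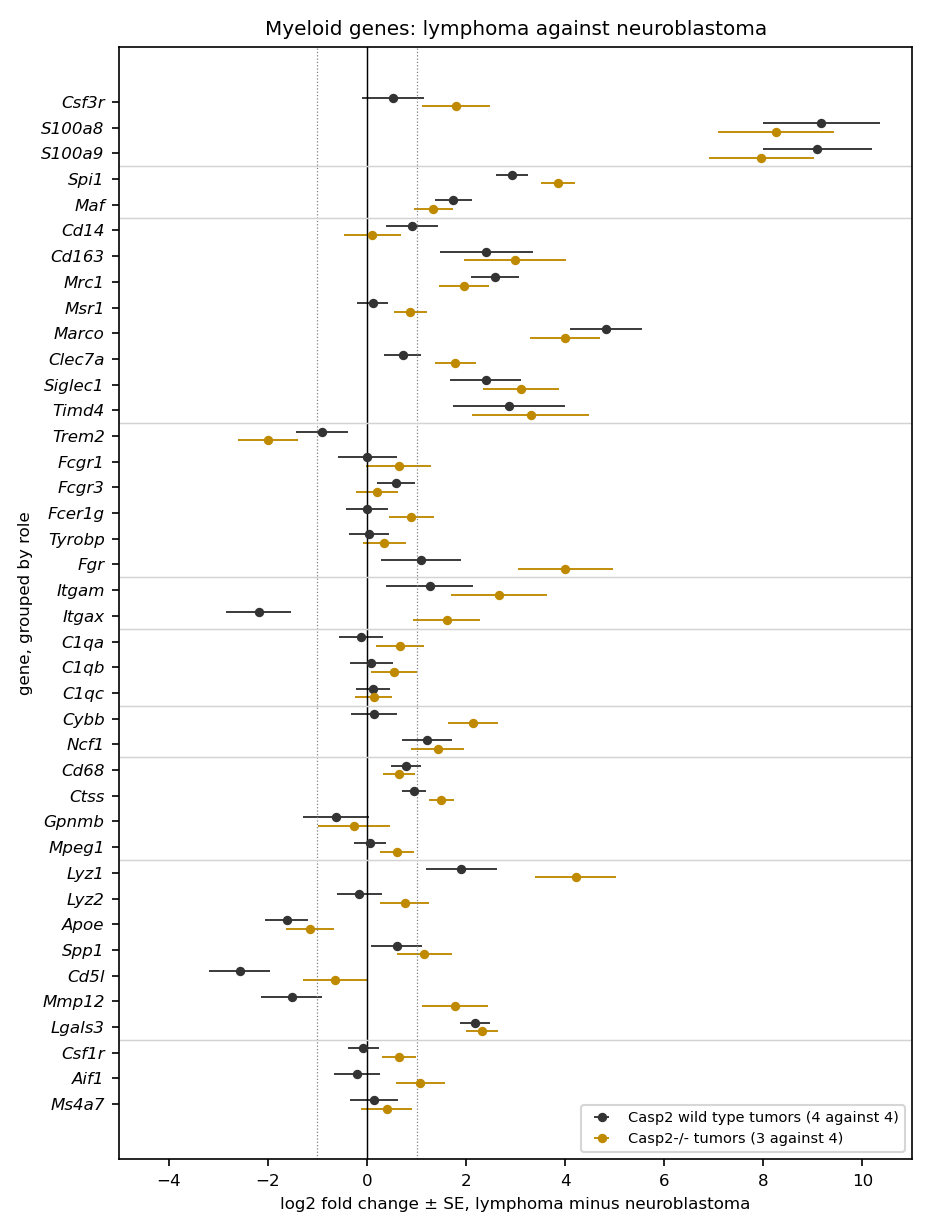
Points are log2 fold changes of 40 genes (lymphoma minus neuroblastoma) and bars are standard errors, for tumors with Casp2 in black and Casp2-/- tumors in yellow, with dotted lines at a 2-fold change. S100a8 and S100a9 lie near 8 to 9 in both, the C1q chains near 0, and Itgax and Mmp12 lie on opposite sides of 0 in the 2 comparisons.

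As a check on cell makeup, the marker lists, which share genes with the members, were summed per tumor. Macrophage markers were at 264 to 805 CPM in EμMyc, 235 to 837 in EμMyc/Casp2-/-, 334 to 475 in Th-MYCN and 218 to 463 CPM in Th-MYCN/Casp2-/- tumors, and each of the 7 genes was detected in each group. Neutrophil markers were at 23.9 to 628 and 115 to 232 CPM in lymphomas and 3.81 to 7.29 and 1.94 to 4.47 CPM in neuroblastomas, where most of the sum was Csf3r. The lymphomas thus overlapped the neuroblastomas in the first list and not in the second.

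**Figure D5:**
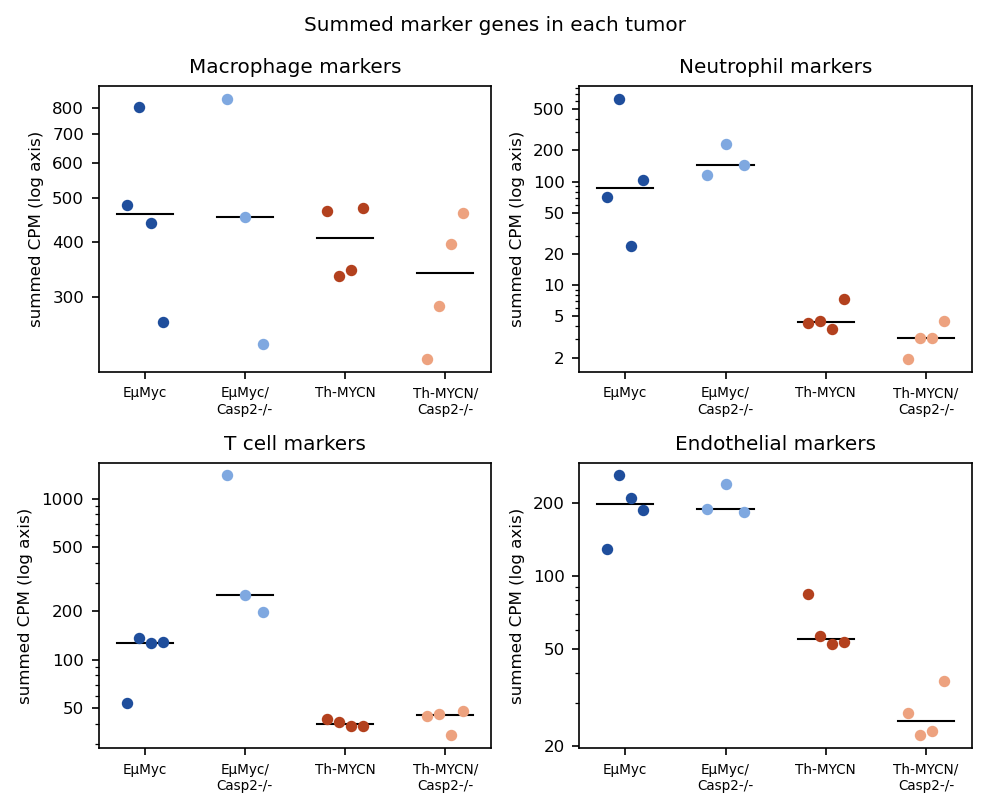
Summed CPM of 4 marker lists on log axes, 1 point a tumor with the group median as a line. Macrophage markers overlap over all 4 groups (218 to 837 CPM), neutrophil markers are at 23.9 CPM or more in each lymphoma and 7.29 CPM or less in each neuroblastoma, and endothelial markers split the neuroblastomas by genotype.

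Of 85 other myeloid genes in 9 lists, 84 were in the files and 75 passed the filter. Between wild type tumors 46 were called higher in lymphomas and 4 lower (all genes 18.3% and 27.8%), and between Casp2-/- tumors 50 and 2 (19.7% and 26.6%). Of the 75, 51 passed in both tumor types, and of these 23 were called higher and 4 lower with Casp2 (17.9% and 20.3% of the 12009 genes that passed in both) and 27 and 2 without it (19.2% and 19.8%). The counts by list that follow are between wild type tumors and over these 51 genes. All 4 partners of the NADPH oxidase were higher, among them Rac2 (5.32 ± 0.38) and Ncf4 (5.07 ± 0.33), which B cells express too (log2 fold changes, as for the genes that follow). Complement had 6 of 10 higher, with C3 at 2.52 ± 0.59, and the Fc and ITAM signalling list 5 of 9 higher and 1 lower, with Plcg2 and Vav1, which lymphocytes use as well, at 5.07 ± 0.33 and 4.59 ± 0.30. Of 15 other macrophage and monocyte genes 3 were higher and 1 lower, Cx3cr1, the fractalkine receptor of resident macrophages and microglia, which was at -2.81 ± 0.58 with no overlap. The colony stimulating factors and receptors had 2 of 5 higher and 1 lower, and the transcription factors 3 of 6 higher, with Irf8 at 4.28 ± 0.31. The 1 dendritic cell gene that passed in both, Zbtb46, was lower (-2.91 ± 0.45). The other 6 genes of its list had log2 fold changes above 0 and are given as reads below.

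The other genes of these lists did not exceed 1 CPM in at least 3 tumors of each type. Of the neutrophil granule and maturation genes 1 of 12, Prtn3, passed the filter in both tumor types, and it was not called. Prtn3 was at 0.157 to 15.4 CPM in lymphomas and 7.04 to 13.2 CPM in neuroblastomas. Unlike the other 11 genes of the list it had negative log2 fold changes, -0.88 between wild type and -1.48 between Casp2-/- tumors. In the latter it was lower in lymphomas with no overlap. Ngp, of this list, had 66 to 1426 reads in each lymphoma and 0 to 3 in each neuroblastoma, and Ltf, which encodes lactoferrin, 31 to 753 and 0 to 1. Ly6c2, a mark of inflammatory monocytes, had 29 to 416 and 0 to 4 reads, Lyve1, a hyaluronan receptor, 22 to 354 and 0 to 42, Flt3 11 to 133 and 0 to 8, and Ccr7, which guides dendritic cells and lymphocytes to lymph nodes, 267 to 975 and 0 to 13. Of the other dendritic cell genes, Clec9a had 8 to 75 and 1 to 15 reads, and Xcr1 3 to 25 and 0 to 6. Cd209a had 4 to 25 and 0 to 4 reads, and Siglech 0 to 105 and 0 to 4. Of the mast cell, eosinophil and basophil genes 1 of 7 passed the filter, Prg2, with 5 to 20 reads in each lymphoma and 0 to 3 in each neuroblastoma.

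Between the genotypes 0 of these 75 genes were called by the quasi-likelihood test of edgeR in either tumor type. At an unadjusted p under 0.05 there were 8 in neuroblastoma, all lower (all genes 4.28%), and 3 in lymphoma, all higher, a smaller share of the 75 than the 5.56% of all genes. Fcgr4, an IgG receptor of monocytes and neutrophils, was called lower in Th-MYCN/Casp2-/- tumors by the likelihood ratio test and by DESeq2. It was at 5.13, 18.2, 2.83 and 124 CPM in Th-MYCN and 2.16, 1.41, 0.964 and 1.3 CPM in Th-MYCN/Casp2-/- tumors with no overlap, MYCN391 being far above the rest. Its log2 fold change was -4.66 ± 1.11 (edgeR FDR 0.22 by quasi-likelihood and 0.00588 by likelihood ratio), and -2.56 without MYCN391, where neither test called it. The likelihood ratio test also lost the call without MYCNC2ko144 or MYCNC2ko176.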

How the data were processed

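Messenger RNA of 15 tumors was sequenced by the authors and aligned with STAR to the mouse genome (mm10/GRCm38). The deposited tables give raw read counts per gene in 3 columns, and the counts of the last one (second strand), which the study used, were analysed. It held 49.6% to 50.2% of the count for either strand in each library, so strand is not informative and genes that overlap on opposite strands share reads. STAR's lines for unmapped, multiply mapped and unassigned reads were kept out: unassigned reads were 66.4% to 71.8% in that column. The annotation used for counting is not given in the sources used here, so positions and lengths are those of GENCODE M21.

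The 14880 genes past the filter (1 CPM exceeded in 3 tumors or more) were scaled by TMM and fitted in 1 model of 4 groups with edgeR 4.0.16 in R 4.3.3. The quasi-likelihood test gave the results, and the likelihood ratio test and DESeq2 1.42.0 were run beside it. A gene was called at a Benjamini-Hochberg FDR under 0.05 over all 14880 genes and a change of over 2-fold. The scripts were tested on simulated data. Replicates came from separate mice, and the 21 pairs within groups differed by more than sampling noise (chi-square per degree of freedom 16.2 to 76.0).

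The members, marker lists and the other myeloid genes were chosen with earlier results of these data known. Genes were described by rule: members called between genotypes or in the interaction by either edgeR test, the 6 smallest p in each genotype comparison, the 5 largest called differences each way between wild type tumors, members called in 1 or neither comparison of tumor types, and the lysozyme and C1q genes. Cybb, Msr1, Ctss, Tyrobp, Trem2 and Csf1r in a genotype comparison were added after their values were seen. A further EμMyc/Casp2-/- tumor was not analysed here. Alternatives were other scalings (DESeq2 size factors or library totals), no filter, counts of either strand, age at onset or sex as covariate, only the groups compared, and each tumor left out. The likelihood ratio test and the count of members below 0 with each tumor left out, and the counts over genes past the filter in both tumor types, were added after seeing the data.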

Additional observations from a re-analysis of the deposited data

Results flagged for a closer look

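Of 120 groups of 4 tumors examined for the 40 members, 11 had 1 tumor far from the other 3 by Dixon's test. Chance gives about 1 in 20 for independent, normally distributed values. The test was run on CPM without taking logs, and members of the same tumor are not independent, so the 11 do not show an excess. MYCN391 was the high tumor in 5 of them: Itgax at 40.2 CPM (the others 6.12 to 8.06), Itgam at 14.9 CPM (0.436 to 1.85), Cybb at 28.04 CPM (15.5 to 16.8), Spi1 at 18.8 CPM (7.76 to 8.42) and Lyz1 at 2.29 CPM (0.693 to 0.799). EuMyc743b was the high tumor in 3, with S100a8 at 152.9 CPM (4.57 to 26.8), S100a9 at 221.5 CPM (6.93 to 41.1) and Maf at 23.9 CPM (14.0 to 15.0). In EuMyc835 Mmp12 was high at 4.88 CPM (1.22 to 1.496) and Lgals3 low at 101.1 CPM (157.5 to 168.8), and in MYCNC2ko180 Timd4 was high at 5.36 CPM (0.0720 to 0.578). The EμMyc/Casp2-/- group, with 3 tumors, was not examined.

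The Casp2-/- difference of Itgax and of Mmp12 differed between lymphoma and neuroblastoma by 3.79 and 3.29 on the log2 scale in the likelihood ratio test of the difference itself, and neither gene was called by the quasi-likelihood test.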

How the results depend on the processing

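Between genotypes and in the interaction 0 members were called under each scaling, filter, strand, covariate and tumor left out with the quasi-likelihood test of edgeR (range 0 to 0). Other tests called 3 members lower in neuroblastoma (likelihood ratio and DESeq2 alike), 1 higher in lymphoma (DESeq2) and 2 higher in the interaction (both). Over all genes the quasi-likelihood test called 1 higher and 4 lower in neuroblastoma, the likelihood ratio test 28 and 93 and DESeq2 33 and 83. In lymphoma these were 14 and 7, 170 and 45, and 161 and 42, and in the interaction 5 and 3, 108 and 28, and 98 and 25. Between wild type tumors 12 members were called higher and 4 lower, and 8 to 13 and 3 to 4 with a tumor left out (8 without MYCN235 or MYCN332). Between Casp2-/- tumors 19 were called higher, 12 with age at onset as covariate, and 15 to 24 with a tumor left out (24 without EuMycC2ko245). The 2 called lower became 1 with DESeq2 size factors, with library totals or with only the groups compared, 0 with age at onset, and 0 to 3 with a tumor left out (0 without EuMycC2ko239 and 3 without EuMycC2ko215). The cause of these moves was not tested. Among log2 fold changes of named genes 1 reversed, Apoe in lymphoma, which ranged from -0.0837 (without EuMycC2ko215) to 1.25 (without EuMycC2ko245) with a tumor left out, and of the other alternatives 1208 kept direction and side of the threshold, 129 fell below it and 22 passed it. Most were set against the quasi-likelihood result. The likelihood ratio fits with a tumor left out are in the same counts and were set against the likelihood ratio result. No paired analysis was possible because the tumors came from different mice. With 0 to 4 reads in each neuroblastoma, differences in S100a8 and S100a9 among these tumors lie near the smallest detectable amount of 3 reads.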
